A study of Mus musculus with 4 samples.

Results

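The Th17-linked genes described here are 7 genes. They comprise cytokine genes Il17a and Il17f, the receptor genes Il23r, Il12rb1 and Il12rb2, the nuclear receptor gene Rora and the chemokine receptor gene Ccr6. They were chosen by name from 21900 protein-coding genes. All but Il12rb2 are linked to the interleukin-17 programme, and Il12rb2 was included as the neighbour of Il23r. The heterochromatin mark H3K9me3, which is histone H3 trimethylated at lysine 9, was mapped by native ChIP-seq, in which micrococcal nuclease cuts chromatin that was never cross-linked. The CD8+ T cells came from wild-type mice of the C57BL/6 strain. One group was naive cells (day 0). The other had been in culture for 3 days, stimulated by anti-CD3 and anti-CD28 antibodies while interleukin-2 was present (day 3). Each day has a single ChIP library, the inputs were not analysed here, and neither the age nor the number of mice is given in the sources used here. Every difference below is therefore between 2 libraries, with no replicate check and no test.

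Interleukin-17A and interleukin-17F are the signature cytokines of Th17 helper T cells, and a related state of CD8+ T cells that makes them is called Tc17. Interleukin-23 maintains this state through a receptor built from the products of Il23r and Il12rb1. Il12rb1 also pairs with the product of Il12rb2 to form the interleukin-12 receptor, which drives the type 1, interferon-gamma-producing state. Rora encodes RORα, a nuclear receptor that acts on the interleukin-17 genes, and Ccr6 encodes the receptor for the chemokine CCL20. Genes of other T cell states can lie in silent chromatin, which H3K9me3 marks.

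The data were the authors' lists of islands, that is, regions in which enriched windows were merged, each with a whole number read here as its count of ChIP reads. The 150 kb on each side of a gene body were examined with it and are called its window. Covered kb is the length that lies in islands. The list held 19989 islands with 3402787 reads on day 0 and 47553 islands with 10423178 reads on day 3. The number of mapped reads is unknown, so reads per kb were compared within a list, as a percentile among all islands of that day. Of the windows together, day 0 had 19 distinct islands and day 3 had 43. Since Il17a and Il17f share a window, and Il12rb2 and Il23r another, the 7 genes make up 5 separate loci.

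The sequences before the start sites are shown for the 4 members whose starts lay within 8.73 kb of a day 3 island without being covered, and for Ccr6, where an island covered 1 of its 2 annotated starts. Each holds the 250 bases before the start, 5′ to 3′ on the gene's strand, from RefSeq (GRCm38.p6, the assembly that mm10 names). Capitals mark AGGTCA or its reverse complement TGACCT, the core half-site that RORα and other nuclear receptors can bind. Only these 6 letters were searched, on both strands. These letters occur in 12.9% of the 20085 such sequences of autosomal protein-coding genes and in 4 of the 7 sequences of 6 members.
Il17a, chr1:20730655-20730904, + strand: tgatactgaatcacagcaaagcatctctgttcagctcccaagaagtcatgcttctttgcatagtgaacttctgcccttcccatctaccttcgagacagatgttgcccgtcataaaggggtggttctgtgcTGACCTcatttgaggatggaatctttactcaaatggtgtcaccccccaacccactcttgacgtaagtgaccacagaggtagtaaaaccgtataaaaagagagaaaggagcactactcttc
Il17f, chr1:20784271-20784520, - strand: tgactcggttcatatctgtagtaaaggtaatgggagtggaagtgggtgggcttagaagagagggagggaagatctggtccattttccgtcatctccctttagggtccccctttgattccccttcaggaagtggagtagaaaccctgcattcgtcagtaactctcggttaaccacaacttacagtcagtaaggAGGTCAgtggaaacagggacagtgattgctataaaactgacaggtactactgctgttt
Il23r, chr6:67491856-67492105, - strand: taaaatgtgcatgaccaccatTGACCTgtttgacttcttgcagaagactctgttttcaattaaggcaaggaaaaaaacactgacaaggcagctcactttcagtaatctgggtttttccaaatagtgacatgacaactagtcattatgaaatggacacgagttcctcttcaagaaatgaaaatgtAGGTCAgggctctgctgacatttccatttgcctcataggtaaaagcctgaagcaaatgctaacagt
Il12rb2, chr6:67376189-67376438, - strand: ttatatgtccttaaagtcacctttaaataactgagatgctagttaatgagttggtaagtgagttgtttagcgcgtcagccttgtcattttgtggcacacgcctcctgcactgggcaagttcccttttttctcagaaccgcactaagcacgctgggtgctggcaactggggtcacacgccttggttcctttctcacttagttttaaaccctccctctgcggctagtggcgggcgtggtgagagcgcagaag
Ccr6, first start, chr17:8235793-8236042, + strand: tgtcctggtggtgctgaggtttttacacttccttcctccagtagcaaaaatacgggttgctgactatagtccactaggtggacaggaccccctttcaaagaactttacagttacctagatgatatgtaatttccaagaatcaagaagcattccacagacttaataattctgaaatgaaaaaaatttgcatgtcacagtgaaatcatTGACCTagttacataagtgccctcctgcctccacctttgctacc
Ccr6, second start, chr17:8242276-8242525, + strand: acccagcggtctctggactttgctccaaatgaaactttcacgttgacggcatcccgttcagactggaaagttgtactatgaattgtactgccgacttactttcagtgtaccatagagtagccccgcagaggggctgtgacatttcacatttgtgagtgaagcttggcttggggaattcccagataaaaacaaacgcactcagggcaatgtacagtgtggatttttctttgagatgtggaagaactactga
A match in these letters describes the sequence and does not show a binding site. Of the 7 promoter windows of 6 members (250 bases before to 50 after the start), an island touched 1 on day 0, the second Ccr6 start, and none on day 3. Among all promoter windows of autosomal protein-coding genes, islands touched 1.90% on day 0 and 2.98% on day 3. The match in Il17a lay 120 bases before the start and that in Il17f 58 bases before it.

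Of the 7 members, 3 had an island in the gene body on day 0 (Il12rb2, Rora and Ccr6) and 3 on day 3 (Il12rb2, Rora and Il23r). Among all autosomal protein-coding genes the shares were 24.0% on day 0 and 28.7% on day 3. Il23r was covered in its body on day 3 only, as were 11.9% of all genes, and Ccr6 on day 0 only, as were 7.14% of all genes. Il17a, Il17f and Il12rb1 had no island in the body on either day, like 13259 of all 20665 autosomal protein-coding genes. Each of the 7 windows held at least 1 island on both days, as did 80.5% of all such windows on day 0 and 77.9% on day 3. The windows are wide, and the presence of an island in a window sets no member apart. More of the body was covered on day 3 in 2 members and on day 0 in 2, where the shares among all genes were 22.8% and 12.8%. More of the window was covered on day 3 in 6 members and on day 0 in Ccr6 alone, where the shares among all genes were 51.7% and 36.9%. The 6 members lie in 4 loci, and with the day 3 list reduced to as many islands as the day 0 list, 3 members had more on day 3 and 4 on day 0. The shares among all genes are for the full lists, and none is given for the reduced list.

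**Figure D1:**
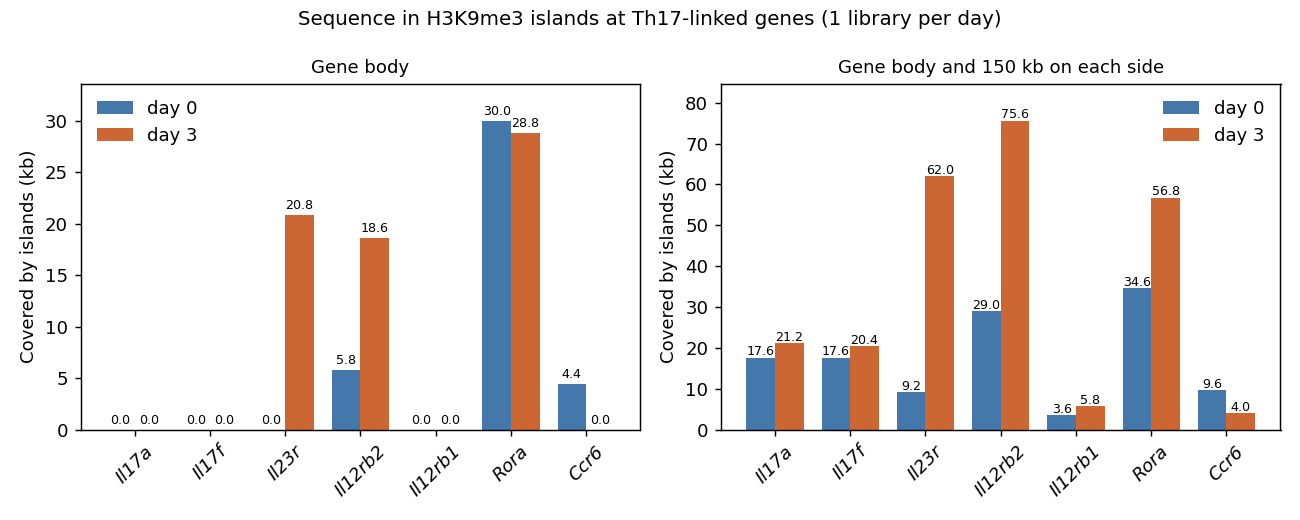
Kilobases covered by islands in each gene body (left) and in the body with 150 kb on each side (right), for day 0 and day 3. Bars are single libraries and carry no error. Il23r and Il12rb2 had the largest excess on day 3 (20.8 and 18.6 kb against 0 and 5.8 kb in the bodies), the body of Rora had 30.0 and 28.8 kb, and the body of Ccr6 was covered on day 0 only.

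The genes of the cytokines themselves lay free of islands on both days, and in the full lists islands were nearer to them on day 3. Il17a (chromosome 1, 20730905 to 20734496, gene ID 16171) and Il17f (20777146 to 20785274, gene ID 257630) are 42.6 kb apart. On day 0 no island lay between them, and the nearest island was 71.3 kb from the Il17a start and 40.5 kb from the Il17f start. On day 3 the nearest islands were 4.31 kb from the Il17a start and 8.73 kb from the Il17f start. The islands next to Il17a held 147 and 163 reads, and the reduced day 3 list, cut to the length of the day 0 list, keeps the islands with the most reads. In that list the nearest island was 61.3 kb from the Il17a start and still 8.73 kb from the Il17f start. The island before Il17a (20724001 to 20726600) held 147 reads, or 56.5 reads per kb, at percentile 71.0 of the day 3 list. An island behind Il17a (20739401 to 20743000) held 163 reads at 45.3 reads per kb and percentile 7.31, which is near the lower end of that list. A further island stood between the genes (20750601 to 20753400, 147 reads, 52.5 reads per kb), so that 6.40 kb of the space between them was covered on day 3. The island between Il17f and Mcm3 (20793001 to 20797200), a gene of the DNA replication helicase, held 227 reads at 54.0 reads per kb.

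The day 0 islands of the interleukin-17 locus lay farther out and were not the day 3 islands. They ran from 20652201 to 20659600 with 232 reads, from 20824801 to 20830000 with 210 reads and from 20858001 to 20863000 with 154 reads. Their densities were 31.4, 40.4 and 30.8 reads per kb, at percentiles 19.7, 92.5 and 14.8 of the day 0 list, so only the second was dense for its day. None of them overlapped a day 3 island, and only 33.6% of all day 0 islands did. The Il17a window had 17.6 kb in islands on day 0 and 21.2 kb on day 3. The Il17f window had 17.6 and 20.4 kb. This small excess turned into a deficit of 8.80 kb in each window when the day 3 list was reduced to as many islands as the day 0 list, keeping those with the most reads. When islands of both lists had to reach the lowest density of the day 3 list, the excess was 16.0 kb for Il17a and 15.2 kb for Il17f. The combined locus was covered over 4.97% on day 0 and 6.72% on day 3, where the autosomes as a whole were covered over 4.08% and 8.07%.

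**Figure D2:**
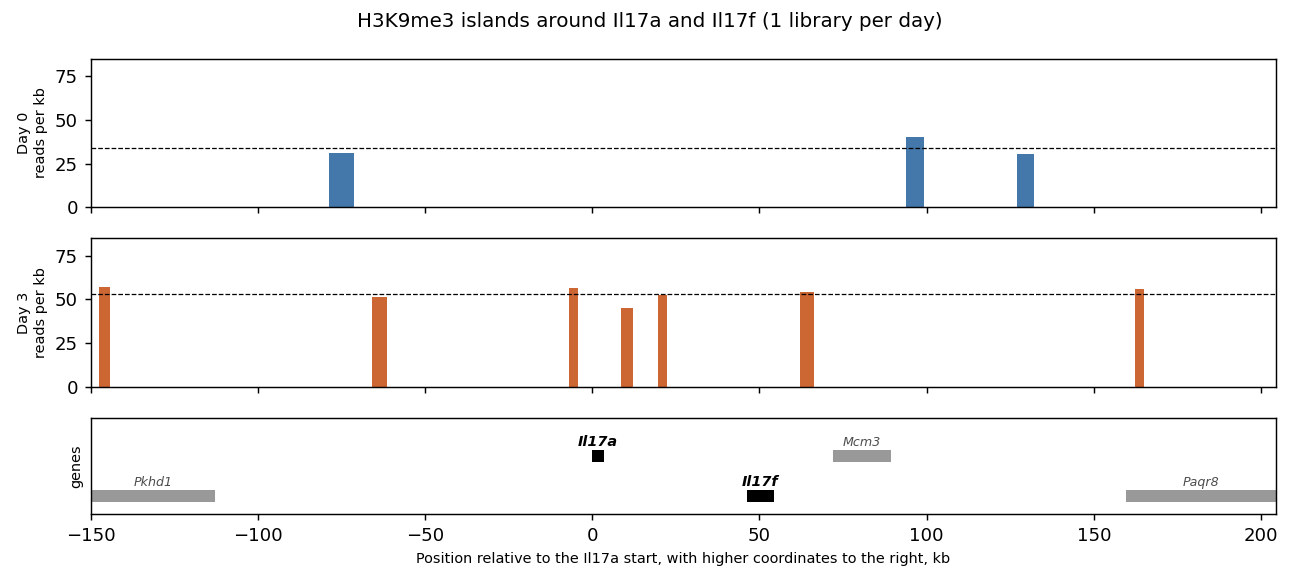
Islands around Il17a and Il17f, as position in kb from the Il17a start against read density in reads per kb, with day 0 above and day 3 below. Dashed lines are the median density of each day's list (34.1 and 52.9 reads per kb), and bars in the lowest panel are protein-coding gene bodies. Islands of the full day 3 list flank Il17a at both sides, the nearest 4.31 kb from its start (61.3 kb in the reduced list), while the bodies of both cytokine genes hold none.

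The receptor genes Il12rb2 and Il23r held most of the day 3 excess among the members. They are neighbours on chromosome 6, with Il12rb2 (67285986 to 67376293, gene ID 16162) 46.6 kb from Il23r (67422932 to 67491855, gene ID 209590), both on the minus strand. Il23r had no island in its body on day 0 and 6 on day 3, which covered 20.8 kb or 30.2% of it. Il12rb2 had 1 island covering 5.80 kb (6.42%) on day 0 and 6 covering 18.6 kb (20.6%) on day 3. Among autosomal protein-coding genes, the covered share of the body on day 3 was above that of 93.2% of genes for Il23r and of 89.0% for Il12rb2. For the windows these values were 92.2% and 94.7%, against 42.9% and 81.6% on day 0.

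The 6 islands in Il23r were spread over the gene. From the lowest coordinate up they began at 67436801, 67444001, 67456201, 67464401, 67475401 and 67479801, and were 1.8, 3.2, 3.0, 5.4, 3.2 and 4.2 kb long. Their densities were 60.6, 60.6, 67.7, 56.9, 52.2 and 49.3 reads per kb. The first 4, toward the 3′ end of the gene, were above the day 3 median of 52.9 reads per kb and the last 2, nearest the start, were below it. The densest, from 67456201 to 67459200 with 203 reads, stood at percentile 95.7. Together they held 1187 reads (95% Poisson interval 1120 to 1256, counting error only), or 57.1 reads per kb. The last ended 7.86 kb from the Il23r start, and the next island on the other side lay 38.5 kb away.

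In Il12rb2 the day 0 island (67347201 to 67353000) held 207 reads (interval 180 to 237) at 35.7 reads per kb and percentile 67.1. It lay 2.2 kb from a day 3 island (67342401 to 67345000, 141 reads) and overlapped none. The 6 day 3 islands held 1057 reads (interval 994 to 1123) at 52.3 reads per kb. They ranged from 41.3 reads per kb (67305401 to 67311600, 256 reads, percentile 0.864) to 63.6 (67284401 to 67287200, 178 reads, percentile 91.3). The densest also covered part of Serbp1, whose body overlaps the 3′ end of Il12rb2. No island touched the Il12rb2 start, and the nearest was 15.8 kb away on day 0 and 3.81 kb away on day 3.

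Around these receptor genes the day 3 islands formed a run from 67268401 to 67484000, from Serbp1, an RNA-binding protein gene, to the start-proximal part of Il23r. Its 17 islands covered 58.6 of 215.6 kb (27.2%), with gaps of 1.2 to 36.8 kb and a median gap of 6.20 kb. The same stretch held 2 islands and 9.20 kb (4.27%) on day 0. Its borders were set by the outermost day 3 islands, which raises the day 3 share and favours day 3 in this comparison. With the reduced day 3 list the Il23r window held 6 islands, against 17 in the full list. Of the space between the receptor genes, 12.2 kb was covered on day 3 and 3.40 kb on day 0. There a day 3 island (67384601 to 67392000, 361 reads) ended at the base before a day 0 island began (67392001 to 67395400, 121 reads). On day 3, 8.20 kb (36.7%) of Serbp1 lay in islands, and on day 0 none of it did. Over the whole locus of 505.9 kb, 5.73% was covered on day 0 and 16.3% on day 3, which is 1.40 and 2.02 times the share of the autosomes. With the reduced day 3 list the excess on day 3 was 9.60 kb in the Il23r body and 5.20 kb in the Il12rb2 body, and with islands of at least their list's median density it was 13.4 and 6.62 kb.

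**Figure D3:**
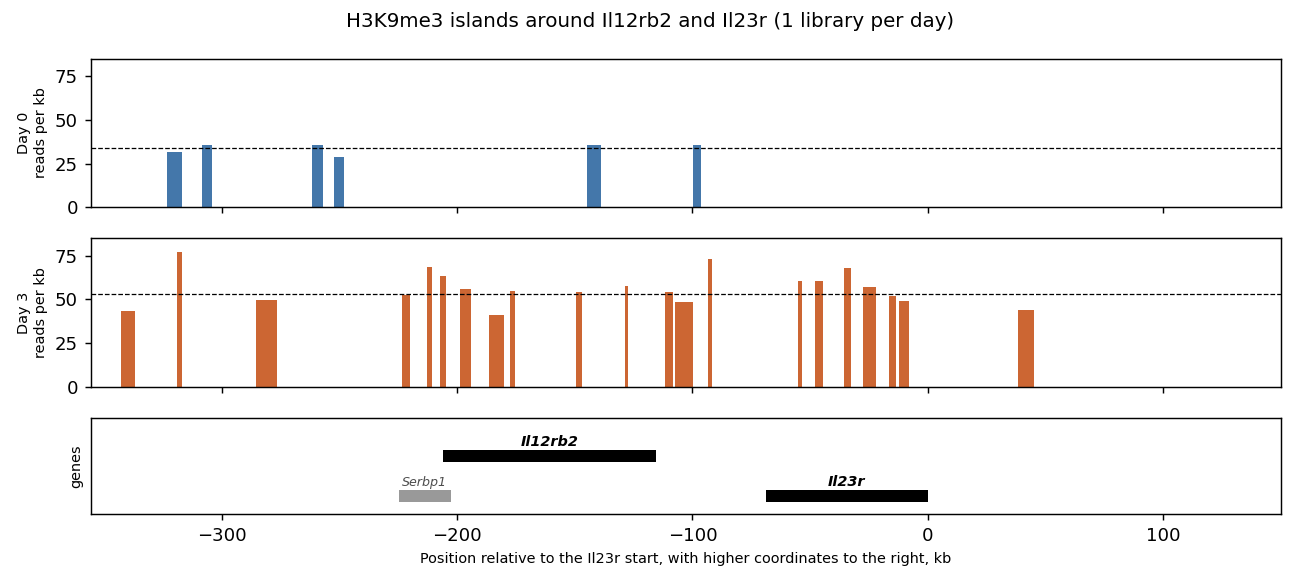
Islands around Il12rb2 and Il23r, as position in kb from the Il23r start against reads per kb, day 0 above and day 3 below, with list medians dashed and the bodies of Serbp1, Il12rb2 and Il23r in the lowest panel. Day 3 shows 6 islands in each receptor gene, against none in Il23r and 1 in Il12rb2 on day 0, and no island touches either start.

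Il12rb1, whose product is shared by both receptors, had the least window coverage of the members on day 0 and, after Ccr6, on day 3. Its body (chromosome 8, 70808360 to 70823542, gene ID 16161) held no island on either day. Its window held 1 island on each day, which overlapped each other at the far edge. The day 0 island (70941801 to 70945400) held 121 reads at 33.6 reads per kb, and the day 3 island (70942601 to 70948400) held 315 reads at 54.3. They lay 118.3 and 119.1 kb from the gene. The window was covered over 1.14% on day 0 and 1.84% on day 3, and none of the 18 other protein-coding genes in it was touched by an island. On day 3 the receptor subunit genes Il23r and Il12rb2 thus had islands in their bodies and Il12rb1 had none.

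Rora (chromosome 9, 68653404 to 69388246, gene ID 19883) is the longest member, with a body of 734.8 kb, and different islands covered its body on the 2 days. With all islands counted, there were 6 islands over 30.0 kb (4.08%) on day 0 and 8 over 28.8 kb (3.92%) on day 3. These shares are close to 4.08% of the autosomes on day 0 and below 8.07% on day 3. No day 0 island in Rora overlapped a day 3 island, and the smallest gap between them was 4.0 kb. Most islands anywhere lay apart from those of the other day. Only 33.6% of all day 0 islands and 14.9% of all day 3 islands overlapped one. The day 0 islands in Rora held 1012 reads (interval 951 to 1076) at 33.7 reads per kb. The day 3 islands in Rora held 1411 reads (interval 1338 to 1487) at 49.0. The day 0 value is close to the median of its list (34.1 reads per kb), and the day 3 value is at the lower quartile of its list (49.0). Before the midpoint of the body, on the side of the start, lay 2 of the 6 day 0 islands and 5 of the 8 day 3 islands. The first island of either day inside the gene lay 133.0 kb beyond the start.

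The day 0 islands in Rora ranged from 31.7 reads per kb (68874601 to 68879800, 165 reads) to 37.4 (69370001 to 69373400, 127 reads). The day 3 islands ranged from 44.5 reads per kb (69305801 to 69309600, 169 reads) to 54.0 (68919601 to 68922600, 162 reads). Just beyond the 3′ end of Rora, Ice2, which encodes a subunit of the little elongation complex of small nuclear RNA genes, had no island on day 0. On day 3, 4 islands covered 24.6 kb or 69.9% of Ice2, above the covered share of 99.1% of autosomal protein-coding genes. The longest of these (69418801 to 69430600) held 657 reads at 55.7 reads per kb, the most reads of any island in the windows. Ice2 thus supplied all 24.6 kb that lay beyond the 3′ end of Rora in its day 3 window, where day 0 had 4.65 kb. In the window as a whole, islands took up 34.6 kb on day 0 and 56.8 kb on day 3. With the reduced day 3 list the difference in the window (day 3 less day 0) was -3.65 kb. The comparison of the Rora body depended on the islands counted. With the reduced day 3 list it had 30.0 kb in islands on day 0 and 8.80 kb on day 3. With islands of at least their list's median density it had 12.0 and 3.0 kb. When islands of both lists had to reach the lowest density of the day 3 list, it had 7.60 and 28.8 kb. The reduced list could only lower the day 3 value, and the cut-off at the lowest day 3 density only the day 0 value.

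**Figure D4:**
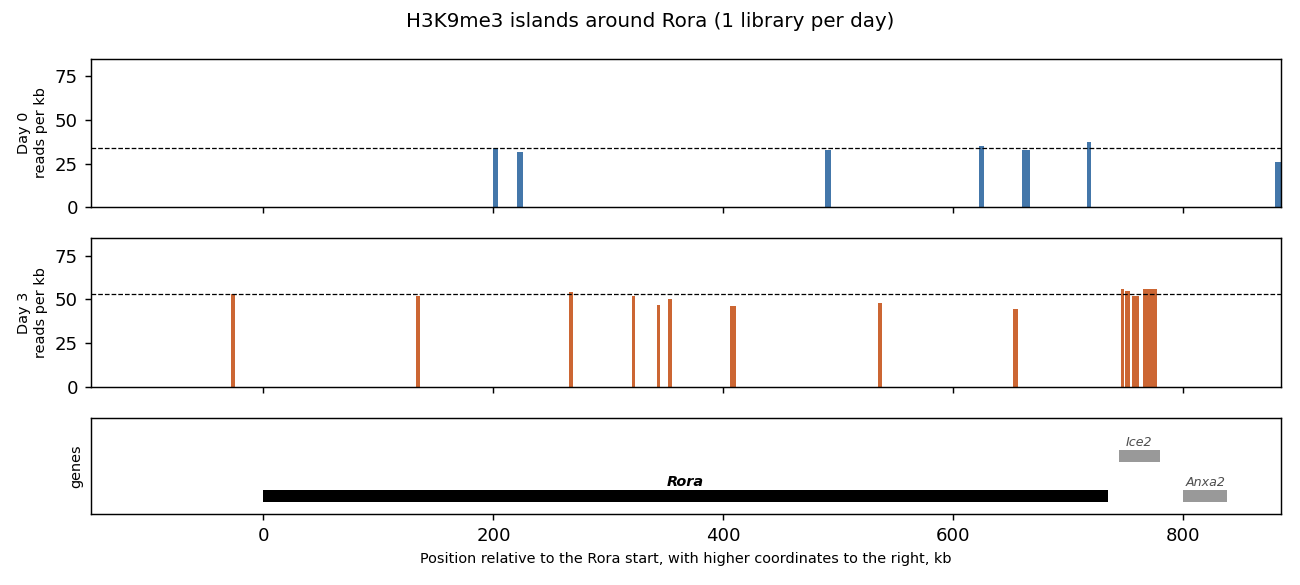
Islands around Rora, as position in kb from the Rora start against reads per kb, day 0 above and day 3 below, with list medians dashed and gene bodies in the lowest panel. The 6 day 0 and 8 day 3 islands in the body lie in different places, and 4 day 3 islands cover the neighbour Ice2.

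Ccr6 (chromosome 17, 8236041 to 8258519, gene ID 12458) was the member with coverage in the body on day 0 and none on day 3. A single island of 4.40 kb (8242001 to 8246400) covered 19.6% of it, a larger share than in 94.4% of autosomal protein-coding genes. It held 155 reads (interval 132 to 181) at 35.2 reads per kb and percentile 62.3 of the day 0 list. It included the second annotated start (8242526) with all 250 bases shown above for it, and began 5.96 kb beyond the first (8236043). The other day 0 island of the window (8209001 to 8214200) held 159 reads at 30.6 reads per kb, at percentile 13.1. On day 3 the nearest island was 49.9 kb from the second start, in Mpc1 (8292401 to 8296400, 197 reads, 49.3 reads per kb), a gene of the mitochondrial pyruvate carrier. Islands made up 9.60 kb of the window on day 0 and 4.0 kb on day 3. The difference of 4.40 kb in the body was the same under each of the 4 alternatives that bear on it. These alternatives only leave islands out, so they could not add coverage on day 3, and the day 0 island passed each cut-off.

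**Figure D5:**
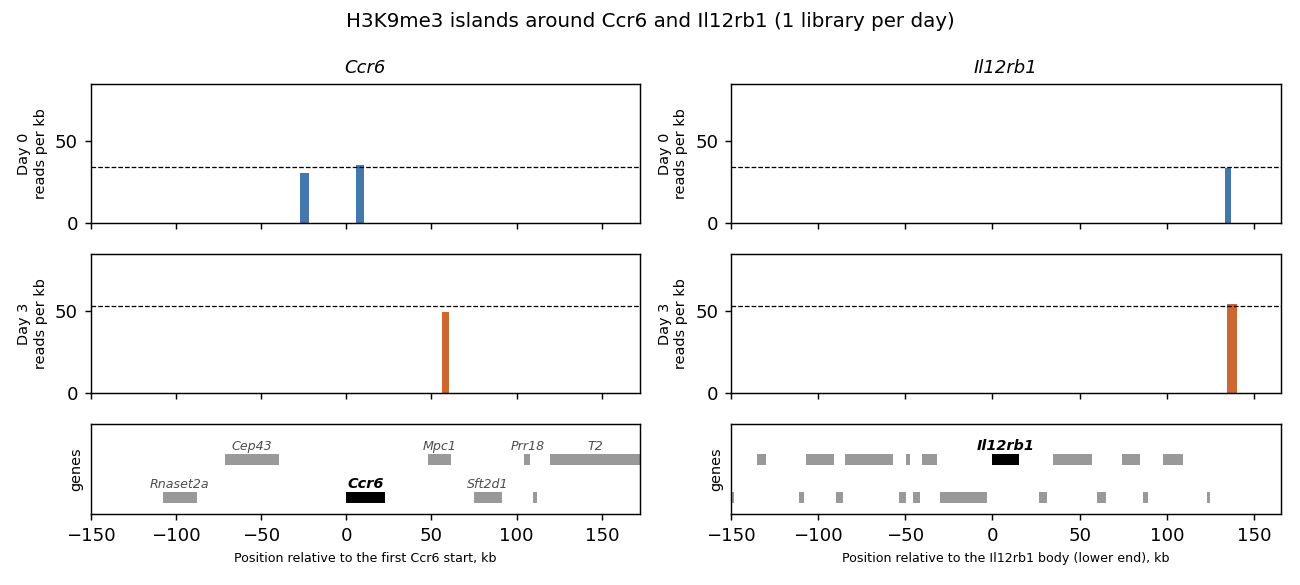
Islands around Ccr6 (left, position in kb from its first start) and Il12rb1 (right, from the lower end of its body) against reads per kb, day 0 above and day 3 below, with list medians dashed and gene bodies in the lowest panels. The body of Ccr6 holds 1 island on day 0 and none on day 3, and that of Il12rb1 holds none on either day.

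Over the 5 loci, which span 2533 kb, islands covered 94.4 kb (3.73%) on day 0 and 172.8 kb (6.82%) on day 3. These shares are slightly below the autosomal values of 4.08% and 8.07%. Of the 19 day 0 islands, 2 (10.5%) overlapped a day 3 island, as did 33.6% of all day 0 islands. Those 2 lay at the edges of the Il12rb1 and Il12rb2 windows, outside every member's body. Of the 43 day 3 islands, 2 (4.65%) overlapped a day 0 island, as did 14.9% of all. The median density was 33.6 reads per kb on day 0, at percentile 44.7 of its list, and 54.0 on day 3, at percentile 57.5. On day 0, 11 of the 19 islands (57.9%) were less dense than any island of the day 3 list, as were 50.4% of all day 0 islands. For such an island, absence from day 3 does not by itself show less of the mark. The Ccr6 and Il12rb2 body islands of day 0 were above that limit, but their intervals (29.9 to 41.2 and 31.0 to 40.9 reads per kb) include it.

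Of 33 further genes of the Th17 pathway, from inducing cytokines and receptors to transcription factors, 5 (15.2%) had an island in the body on day 0 and 11 (33.3%) on day 3, where all genes gave 24.0% and 28.7%. An island was present on day 3 only in 8 of them, on day 0 only in 2 and on both days in 3. Among all genes, 11.9% had one on day 3 only, 7.14% on day 0 only and 3481 of 20665 on both days. The 8 with the most covered bases on either day were Jak2, Stat4, Hif1a, Tgfbr1, Ahr, Nfkbiz, Stat3 and Runx1. Jak2, the kinase bound to the products of Il12rb2 and Il23r, had no island on day 0 and 6 on day 3, over 29.6 kb or 48.3% of its body. The transcription factor gene Stat4, which acts below the interleukin-12 receptor, had 10.6 kb in islands on day 0 and 20.6 kb on day 3. Hif1a, which encodes the oxygen-regulated factor that favours Th17 cells, was covered over 6.0 and 19.0 kb. Tgfbr1, a receptor subunit for the inducing cytokine TGF-β, was covered over 9.60 and 17.0 kb. Ahr, the aryl hydrocarbon receptor of Th17 cells, was covered over 7.82 kb on day 3 only, and Stat3 and Runx1, transcription factors of the programme, over 3.80 and 3.60 kb on day 3 only. Nfkbiz, which encodes a nuclear inhibitor-of-NF-κB protein that promotes Il17a transcription, was covered over 4.78 kb on day 0 only.

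For comparison, none of 8 Th1 genes had an island in the body on either day, and of 8 Th2 genes 2 had one on day 0 (Il4 and Rad50) and 1 on day 3 (Rad50). The median share of the window covered was 3.35% on day 0 and 6.62% on day 3 in the 7 members, 5.37% and 4.87% in the 33 pathway genes, 1.92% and 2.08% in the Th1 genes, 5.86% and 0.981% in the Th2 genes and 3.16% and 3.71% in all genes. These lists are small, neighbouring genes in them share islands, and no test between them was made. In the Th2 list, Il4, Il13, Rad50 and Il5 are neighbours on chromosome 11. The windows of Il4, Il13 and Rad50 each had 19.8 kb in islands on day 0 and 4.2 kb on day 3, and that of Il5 18.8 and 2.4 kb. The member median likewise counts the shared islands of Il17a and Il17f, and of Il12rb2 and Il23r, for each gene. It is the share of the Rora window on day 0 and of the Il17f window on day 3. With the reduced day 3 list the differences (day 3 less day 0) in these windows were -3.65 and -8.80 kb. The medians above are for the full lists, and none is given for the reduced list. ChIP of H3K9me3 does not measure expression, so the cell type could not be checked by transcripts. None of 6 CD8 T cell marker genes (Cd8a, Cd8b1, Cd3e, Cd3d, Cd3g and Lck) had an island in the body on either day. Of 3 B cell markers none had one on day 0 and 1 on day 3 (Ms4a1). Of 3 myeloid markers 1 had one on day 0 (Csf1r) and none on day 3. Only 24.0% and 28.7% of all genes had one, so these counts do not check the cell type. More of the window was covered on day 3 in 5 of the 6 CD8 T cell markers, with 22.8 and 49.8 kb for Cd8a. In Lck it was 8.2 kb on day 0 and 0 on day 3.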

How the data were processed

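H3K9me3 ChIP libraries from 1 day 0 and 1 day 3 sample of CD8+ T cells were analysed. Per the labels' protocols, each ChIP used 4000000 cells and each library about 100000000 paired-end reads of 150 bases. The submitters' processing notes name Bowtie2, SICER version 1.1 and mm10. Not given in the sources used here are the threshold, the gap size and the use of input. The deposited files hold an unnamed count per island, which was read as raw ChIP reads, not scaled for depth, length or input. Depth is known only as reads in islands. All island borders fell on multiples of 200 bp, and coordinates were made 1-based. Gene bodies and start sites came from RefSeq tables of GRCm38.p6, which gave promoters for 6 of the 7 members. An overlap of 1 bp counted as an island in a gene. Background shares are over 20665 autosomal protein-coding genes. Coverage was computed in Python 3.11.15 with pandas 2.3.3, tested on simulated islands and checked against bedtools 2.31.1. Intervals are exact 95% Poisson intervals. Reads without molecular identifiers are not independent molecules. Further pathway genes named in the text are the 8 with the most covered bases. Genes were grouped by 7 lists. Members and lists were chosen with earlier results of these data known. Some genes are not reported here.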

Additional observations from a re-analysis of the deposited data

How the results depend on the processing

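With 1 library per day, no library could be left out. No paired analysis was possible because each group has 1 sample and no result comes from a test. The absence of an island shows only that nothing there reached the authors' cut-off, and depth differs between the lists by an unknown factor. The excess of day 3 over day 0 in the 5 loci was 78.4 kb with all islands. It was 0.754 kb with equal list lengths, 40.0 kb with islands of at least the median density of their list and 137.4 kb with islands of both lists at or above the lowest density of day 3. With equal list lengths, the difference (day 3 less day 0) was -8.80 kb in the Il17a window, -8.80 kb in the Il17f window and -3.65 kb in the Rora window, against 3.60, 2.80 and 22.2 kb. With the common lowest density the Il17a and Il17f windows had 16.0 and 15.2 kb more on day 3. In the Rora body the difference was 21.2 kb with the common lowest density, -9.00 kb with the median density and -21.2 kb with lists of equal length, against -1.20 kb. The number of pathway genes with a body island on day 3 was 5 with equal list lengths and 7 with the median density, against 11. On day 0 it was 3 with the median density and 3 with the common lowest density, against 5. The shares of all genes at these settings are not given here, so these counts cannot be set against a background. The median density in the windows was 20.4 reads per kb higher on day 3, a difference across lists of unequal depth, and 12.7 percentile points higher when ranked within each list. The counts of members with an island stayed within 1.5 times in every alternative, flanks of 50 and 300 kb and a minimum overlap of 1 kb included. The signs of the differences in Il23r, Il12rb2 and Ccr6 were the same throughout, but their sizes were not. The alternative lists only leave islands out. The body differences of Il23r, with 0 kb on day 0, and of Ccr6, with 0 kb on day 3, therefore could not reverse. With equal list lengths the window differences were 25.6 kb for Il23r, 13.8 kb for Il12rb2 and -9.60 kb for Ccr6, against 52.8, 46.6 and -5.60 kb, and with the common lowest density that of Ccr6 was -0.400 kb. The shifts between lists follow from which islands are counted.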

Other observations

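The sequences before the start sites of the members differed in base composition. The 250 bases before the Rora start had a GC content of 61.2% and 26 CpG pairs, and those before the Il12rb2 start 50% and 10. Those before the Il23r start had 39.6% and 1, and those before the first Ccr6 start 41.2% and 1. The second Ccr6 start, which lay in the day 0 island, had 46.0% and 7. Il17a had 46.0% and Il17f 47.2%, each with 4 CpG pairs. The median over 20085 such sequences of autosomal protein-coding genes was 56.0% and 10. No relation to the islands was tested.

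Among 32 other protein-coding genes in the windows, 1 (3.12%) was touched by an island on day 0 and 6 (18.8%) on day 3. All autosomal protein-coding genes gave 24.0% and 28.7%. Of the 32, 18 lie in the Il12rb1 window, and none of those was touched on either day. Pkhd1, a kidney and bile duct gene at the edge of the Il17a window, was the one touched on day 0. Over its whole body 8.20 kb was covered on day 0 and 35.0 kb on day 3. Its day 0 islands lay outside the window, whose lowest day 0 island began at 20652201, beyond the end of Pkhd1 at 20618082. Paqr8, a membrane progesterone receptor gene, was covered over 2.60 kb and Mpc1 over 4.0 kb or 28.8% on day 3 only.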
